A study of Mus musculus with 38 samples.

Results

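The comparison set the response of villi to 1,25(OH)2D3, the active vitamin D hormone, against the response of crypts, and asked for each gene whether both epithelial fractions changed by the same amount. Its measure was the log2 fold change of vitamin D over vehicle in villi minus that in crypts, on log2(FPKM + 0.5), where FPKM is the number of fragments scaled by transcript length and library size. It used 25 of the 38 libraries of the series: 7 vitamin D and 6 vehicle libraries of villi, and 6 vitamin D and 6 vehicle libraries of crypts. Genes were kept where at least 6 libraries of either fraction reached an FPKM of 1, which left 10942 of the 21441 genes in the tables. Of these, 9497 passed in both fractions, 209 in villi alone and 1236 in crypts alone.

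All 4 groups came from wild-type C57BL6/J mice made deficient in vitamin D, labelled as pooled males and females. The labels give an age of 10 to 13.3 weeks, whereas the treatment protocol gives 12 to 14 weeks. Vitamin D mice received 1,25(OH)2D3 intraperitoneally at 10 ng per g of body weight, vehicle mice received 0.1 ml of propylene glycol and ethanol, and both were killed after 4 h. Epithelium of the proximal small intestine was loosened with 3 mM EDTA, and villi were parted from crypts on a 70 µm filter. The labels do not tie libraries to single mice, nor say whether villi and crypts of one number share a mouse. The p-values therefore measure the spread between libraries, which may be technical.

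Vitamin D hormone acts through the vitamin D receptor, a nuclear receptor that binds DNA as a partner of a retinoid X receptor, commonly at direct repeats of a hexamer. The intestine is its best known target organ for calcium: a channel in the brush border admits the ion, calbindin carries it through the cytoplasm, and a pump expels it on the basolateral side. Crypts hold stem, dividing and Paneth cells, and villi hold the absorptive enterocytes that those dividing cells give rise to.

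Depth was similar across the 25 libraries, at 14.22 to 17.48 M reads with a median of 16.03 M. Summed FPKM of 20 enterocyte markers was 16550 to 21930 in vitamin D villi and 13620 to 21800 in vehicle villi, against 5024 to 10370 in vitamin D crypts and 3659 to 16180 in vehicle crypts. The summed Paneth markers were 182 to 1414 in vitamin D villi and 109 to 4163 in vehicle villi. They were 17850 to 41400 in vitamin D crypts and 17440 to 39720 in vehicle crypts. Paneth sums thus kept the fractions apart in every library, whereas enterocyte sums, as given, overlapped under vehicle. Villi and crypts were scaled separately, so sums do not compare directly between fractions. Over all genes the median gap, villus minus crypt, was -0.51 under vehicle (log2 of group means), and the sums were not corrected for it. Vehicle crypt library 6, at 16180, stood above vehicle villus libraries 4 (15580), 5 (14480) and 6 (13620), and vehicle crypt library 5 (13660) above vehicle villus library 6. In such bulk fractions fewer cells of a type and less RNA per cell cannot be told apart. Stromal, muscle and endothelial markers summed to 8.559 FPKM at most in any library. Vehicle crypt library 4 stood at one end of its group, with the lowest enterocyte sum (3659) and the highest cell cycle sum (1185). Xist and Ddx3y gave 17 libraries the female and 8 the male pattern, although the labels call the mice pooled. The male pattern was in 3 of 7 vitamin D villus libraries and 3 of 6 vehicle ones, and in 1 of 6 crypt libraries under each treatment, in vehicle crypts library 4. In libraries numbered 1 to 4 villi and crypts had the same pattern under both treatments, female in 1 to 3 and male in 4. Whether these shared a mouse was not tested. Villi had the male and crypts the female pattern in libraries numbered 5 under both treatments and 6 under vehicle. Those same-numbered libraries therefore did not share a mouse.

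**Figure D1:**
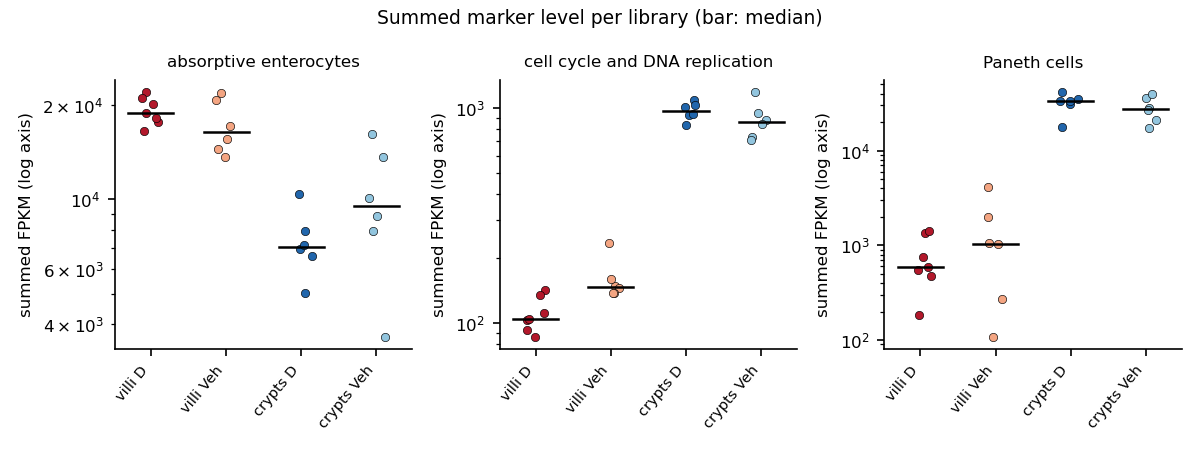
Summed FPKM of absorptive enterocyte, cell cycle and Paneth cell markers in each library (log axis), with vitamin D left of vehicle in villi and then in crypts; bars are medians. Vehicle crypt libraries run from 3659 to 16180 in the enterocyte panel, a wider range than in the other 3 groups.

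The responses of villi and crypts ran in the same direction for nearly every gene that either fraction called. In villi 230 genes rose and 50 fell, or 2.1% and 0.457% of those tested (limma, adjusted p under 0.05), and in crypts 143 rose and 71 fell, or 1.31% and 0.649%. Both fractions called 96 genes, and all 96 had the same sign: 83 rose and 13 fell in both. No gene was called with opposite signs in this fit. In the comparisons deposited by the authors, however, Ppl and Fhl2 passed an adjusted p of 0.05 in both fractions with opposite signs. Their log2 fold changes there were 0.85 in villi and -0.42 in crypts for Ppl, and -0.53 and 0.63 for Fhl2. Vitamin D libraries were all above vehicle for 174 genes in villi (1.59%) and 133 in crypts (1.22%), and all below for 16 (0.146%) and 58 (0.53%). Among the 398 genes called in either fraction, 94.5% had the same sign, against 54.7% of all genes tested.

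Across genes, which are not independent replicates, the correlation of the responses depended on which genes were taken. Over all 10942 genes Pearson's r was 0.44 and Spearman's rho 0.18, and r was 0.37 without Cyp24a1. The median standard error was 0.14 for a villus response and 0.15 for a crypt response, beside standard deviations over genes of 0.30 and 0.34. Among the 5471 genes of higher mean level r was 0.58, and among the other 5471 it was 0.30. Over the 398 genes called in either fraction r was 0.81 and rho 0.72, and r was 0.71 without Cyp24a1. The 96 genes called in both gave r = 0.94, with a median of 0.92 for the villus response and 0.86 for the crypt response (log2, sign kept). These genes were chosen by the same fold changes, which raises such an r.

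**Figure D2:**
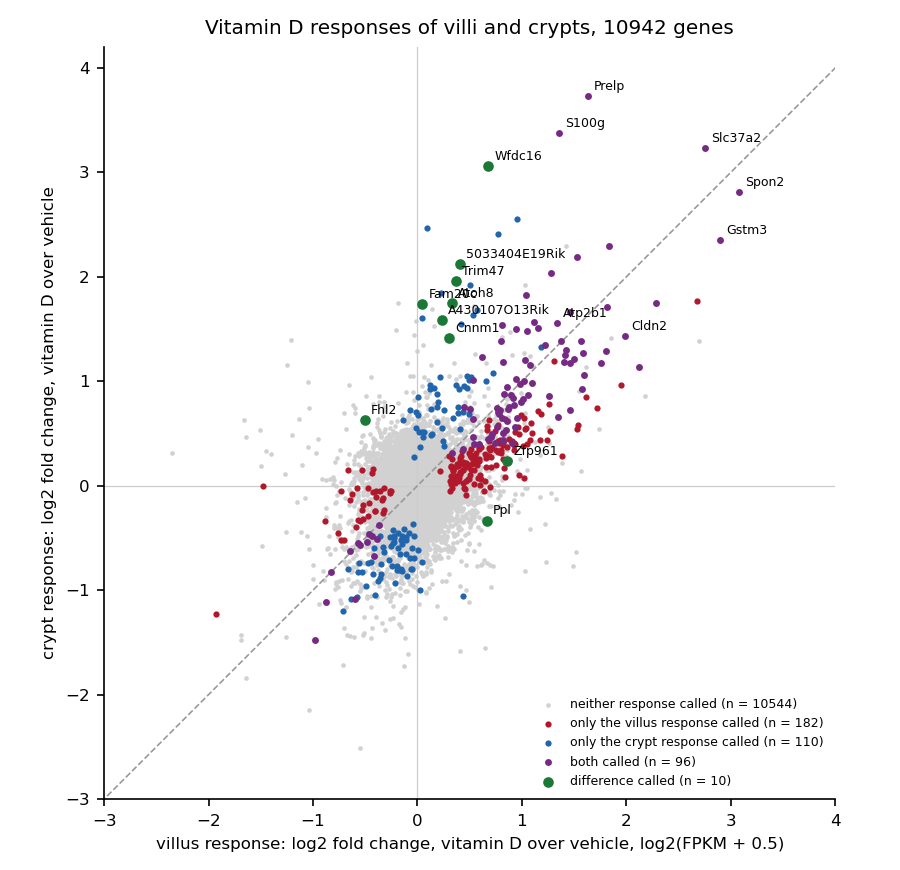
Villus response (x axis) against crypt response (y axis), each the log2 fold change of vitamin D over vehicle on log2(FPKM + 0.5), for every gene tested; the dashed line marks equal responses. Most genes called in both fractions lie near the line, with S100g and Prelp well above it, 8 of the 10 genes with a called difference lie above it, and Cyp24a1, at 10.53 and 11.37, lies outside the axes.

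Genes were also chosen by their response in colon, whose libraries entered neither response, though the labels do not say whether they came from the same mice. Of 11540 genes tested there, 95 were called (0.823%), of which 82 were among the genes compared here. Their villus and crypt responses had the same sign in 93.9% and correlated with r = 0.91 and rho = 0.72, and with r = 0.66 and rho = 0.71 without Cyp24a1. For the 76 genes that rose in colon the median response was 0.82 in villi and 0.69 in crypts, and the median difference was 0.01. The villus response was the more positive for 38 of them and the crypt response for the other 38. Of the 10 genes whose responses were called to differ (0.0914% of those tested), 4 were among these 76: 5033404E19Rik, Atoh8, Trim47 and Fhl2. All 4 had the more positive response in crypts. All but Fhl2 had passed the filter on low values through vitamin D crypts alone and so had to be high there, which leaves their direction without weight.

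Few genes could be shown to respond differently. The difference of responses was called for 10 of 10942 genes, or 0.0914%: 2 were positive, with the more positive response in villi (0.0183%), and 8 were negative (0.0731%). Of the 8, 5 had passed the filter on low values through vitamin D crypts alone. With no adjustment, 774 genes (7.07%) had a p under 0.05. Of the 230 genes risen in villi, 83 were also called in crypts (36.1%), 139 had the same sign without a call, and 2 had a called difference. Of the 143 risen in crypts, 83 were also called in villi (58%), 54 had the same sign without a call, and 8 had a called difference. A call in 1 fraction alone was thus seldom accompanied by a called difference. Among the 20 genes of largest rise in each fraction, 7 were shared, 16 of the villus genes were called in crypts and 11 of the crypt genes in villi. Of the 60 genes risen in crypts and not called in villi, 27 averaged under 1 FPKM in both villus groups. The 95% interval of the difference lay within 1 log2 unit of 0 for 8666 genes (79.2%), and for 68 of the 96 called in both (70.8%).

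Without vehicle crypt library 4 the difference was called for 19 genes, and the crypt response for 684 in place of 214. The crypt response was called for 129 genes without vitamin D crypt library 5 and for 134 without vitamin D crypt library 2. The correlation over all genes was 0.33 without vehicle crypt library 4 and lay between 0.33 and 0.52 when any one library was left out.

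Among the shared responses, Cyp24a1, the mitochondrial enzyme that degrades 1,25(OH)2D3, rose furthest. It reached 1898 to 4651 FPKM in vitamin D villi (median 3493), against 0.0548 to 62.2 FPKM in vehicle villi (median 0.977). In crypts it reached 2516 to 4487 FPKM with vitamin D (median 3668), against 0.184 to 7.35 FPKM with vehicle (median 0.462). Vitamin D and vehicle libraries did not overlap in either fraction. The log2 fold change was 10.53 ± 0.72 (SE) in villi and 11.37 ± 0.75 in crypts, a difference of -0.85 ± 1.03 that was not called (limma, adjusted p = 0.81). Vehicle villus library 6, at 62.2 FPKM, weighed on this value, which was 0.12 without it.

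Of the 6 measured members of the calcium list, Atp2b1, Cldn2 and S100g rose in both fractions and the other 3 were called in neither, beside 2.1% of all genes risen in villi and 1.31% in crypts. Atp2b1, the basolateral calcium pump, had 88.6 to 146.5 FPKM in vitamin D villi (median 103.5), against 39.7 to 48.1 FPKM in vehicle villi (median 41.9). It had 69.0 to 100.8 FPKM in vitamin D crypts (median 90.8), against 19.5 to 45.4 FPKM in vehicle crypts (median 29.5). The groups did not overlap in either fraction, and the log2 fold changes of 1.33 ± 0.15 in villi and 1.56 ± 0.15 in crypts differed by -0.23 ± 0.21, which was not called (limma, adjusted p = 0.757, 95% interval -0.66 to 0.21) and was -0.11 without vehicle crypt library 4. Cldn2, a claudin that forms a cation pore between cells, rose by 1.99 ± 0.33 in villi and 1.43 ± 0.34 in crypts on the log2 scale, with a difference of 0.56 ± 0.48. The channel gene Trpv6 stayed low, at a mean of 1.87 ± 1.06 FPKM in vitamin D villi and 0.603 ± 0.558 FPKM in vehicle villi, and 1.34 ± 0.76 FPKM in vitamin D crypts and 0.239 ± 0.283 FPKM in vehicle crypts (SD, n = 7, 6, 6 and 6). Neither Trpv6 response was called (limma, adjusted p = 0.136 in villi and 0.0904 in crypts). Cldn12 and Cldn15, claudins of cell junctions, were called in neither fraction.

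S100g, which encodes the intestinal calcium buffer calbindin-D9k, stood farthest from the line among the calcium genes. It had 1118 to 2497 FPKM in vitamin D villi (median 1712), against 317 to 1004 FPKM in vehicle villi (median 733). It had 2073 to 3195 FPKM in vitamin D crypts (median 2427), against 57.1 to 588 FPKM in vehicle crypts (median 266). Every vitamin D library was above every vehicle library of its fraction, and the ratio of mean FPKM was 2.49 in villi and 8.46 in crypts. The difference of responses was -2.02 ± 0.53 on the log2 scale with an unadjusted p of 7.94e-04, and it did not pass over all genes (limma, adjusted p = 0.357). Without vehicle crypt library 4, the lowest at 57.1 FPKM, it was -1.61. Median S100g was lower in villi than in crypts under vitamin D (1712 against 2427 FPKM) and higher under vehicle (733 against 266 FPKM). The ranges of the fractions overlapped under both treatments. Villi and crypts were scaled in separate tables, so these levels do not compare directly. Over all genes the median gap, villus minus crypt, was -0.46 under vitamin D and -0.51 under vehicle (log2 of group means).

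Of the transporters named whatever their test, Slc37a2, Slc30a1, Slc30a10 and Slc39a8 rose in both fractions. Slc37a2, a sugar-phosphate carrier, had 63.6 to 114 FPKM in vitamin D villi (median 100), against 8.49 to 23.8 FPKM in vehicle villi (median 11.9). It had 54.2 to 93.0 FPKM in vitamin D crypts (median 72.7), against 2.38 to 13.6 FPKM in vehicle crypts (median 8.35). No vehicle library reached a vitamin D library in either fraction, and the difference of responses was -0.49 ± 0.43 (limma, adjusted p = 0.749), and -0.20 without vehicle crypt library 4. Slc30a1, a zinc exporter, had nearly equal responses, 1.37 ± 0.16 in villi and 1.39 ± 0.16 in crypts, with a difference of -0.02 ± 0.23 and a 95% interval of -0.49 to 0.46. Slc30a10, a manganese exporter, rose by 1.53 ± 0.26 in villi and 2.19 ± 0.27 in crypts, and Slc39a8, a metal importer, by 1.11 ± 0.24 in villi and 1.56 ± 0.25 in crypts. Their differences, -0.67 ± 0.37 and -0.45 ± 0.35, were not called, and that of Slc30a10 was -0.43 without vehicle crypt library 4.

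The largest shared rises also held genes of other roles. Spon2, which encodes a secreted matrix protein, rose by 3.08 ± 0.39 in villi and 2.81 ± 0.40 in crypts on the log2 scale, though its mean was only 5.29 ± 3.55 FPKM in vitamin D villi and 4.58 ± 4.48 FPKM in vitamin D crypts. Gstm3 and Gstm1, glutathione transferases, rose by 2.90 ± 0.43 and 2.29 ± 0.38 in villi, and by 2.35 ± 0.45 and 1.75 ± 0.39 in crypts. These paralogs are near-identical, and the labels do not say how reads they share were counted, which leaves their separate values uncertain. Ptprj, a receptor tyrosine phosphatase, rose by 1.82 ± 0.15 in villi and 1.71 ± 0.15 in crypts. Pdlim2, a PDZ and LIM domain protein, rose by 1.83 ± 0.41 in villi and 2.30 ± 0.42 in crypts. Prelp, a matrix proteoglycan, averaged 3.36 ± 3.26 FPKM in vitamin D villi and 0.547 ± 0.597 FPKM in vehicle villi, against 126 ± 41.1 FPKM in vitamin D crypts and 9.18 ± 3.72 FPKM in vehicle crypts. Its difference of responses was -2.10 ± 0.62 and did not pass (limma, adjusted p = 0.534).

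**Figure D3:**
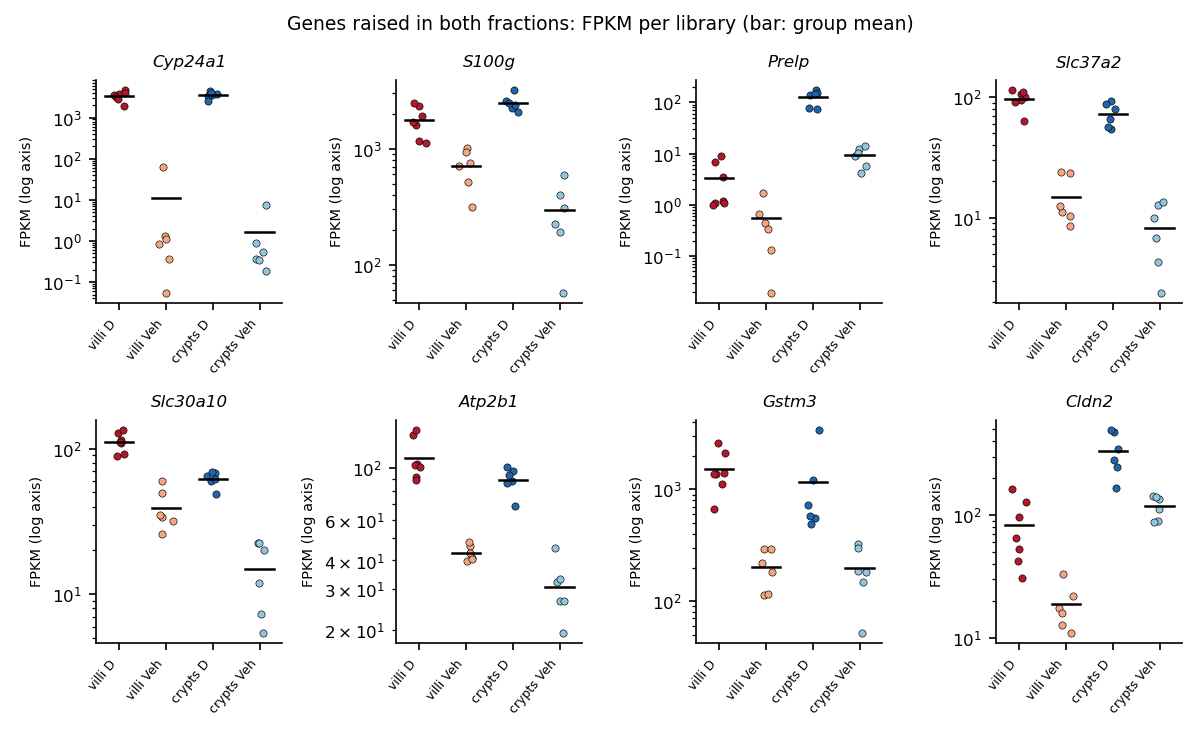
FPKM per library (log axis) of 8 genes called in both fractions, with vitamin D left of vehicle in villi and then in crypts; bars are group means. For Cyp24a1, vehicle villus library 6 stands at 62.2 FPKM, and for S100g vehicle crypt library 4 stands at 57.1 FPKM.

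Some genes fell in both fractions. Lrat, which forms retinyl esters, had 3.17 to 5.74 FPKM in vitamin D villi (median 4.13), against 5.46 to 7.19 FPKM in vehicle villi (median 6.84). It had 1.87 to 4.21 FPKM in vitamin D crypts (median 2.56), against 4.44 to 8.96 FPKM in vehicle crypts (median 6.46). The groups did not overlap in crypts and overlapped in villi, and the log2 fold changes were -0.59 ± 0.16 in villi and -1.08 ± 0.16 in crypts. Adh4, an alcohol dehydrogenase, changed by -0.98 ± 0.27 in villi and -1.48 ± 0.28 in crypts. Vdr, the receptor itself, was called in neither fraction, at 161 ± 35.9 FPKM in vitamin D villi and 138 ± 32.1 FPKM in vehicle villi, and 249 ± 55.2 FPKM in vitamin D crypts and 195 ± 38.2 FPKM in vehicle crypts.

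Promoter sequences of S100g and Slc37a2, the calcium buffer and the carrier described above, are shown because both rose without overlap in both fractions. Each is the 250 bases before the RefSeq transcription start, in GRCm38.p6, from chrX:162964600-162964849 and chr9:37255739-37255988, both on the minus strand. Capitals mark single hexamers, on either strand, of the set AGGTCA or AGTTCA or GGGTCA or GGTTCA or AGGTGA or GGGTGA.
S100g: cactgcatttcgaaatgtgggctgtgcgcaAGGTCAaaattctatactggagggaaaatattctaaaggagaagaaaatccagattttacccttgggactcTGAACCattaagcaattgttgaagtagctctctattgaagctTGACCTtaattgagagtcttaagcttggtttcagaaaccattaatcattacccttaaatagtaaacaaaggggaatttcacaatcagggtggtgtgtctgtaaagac
Slc37a2: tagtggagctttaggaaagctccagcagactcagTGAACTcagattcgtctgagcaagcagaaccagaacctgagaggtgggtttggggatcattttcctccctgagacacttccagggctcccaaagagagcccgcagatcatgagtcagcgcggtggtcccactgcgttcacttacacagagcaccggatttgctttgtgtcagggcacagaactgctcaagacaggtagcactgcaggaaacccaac
S100g held 3 such hexamers and Slc37a2 held 1. At least 1 hexamer lay in 53.6% of the 32851 promoters in the table and in 53.8% of the 93 promoters of the 67 matched genes called in both fractions. Any pair of these hexamers spaced by NNN as a direct repeat lay in 54 of 32851 promoters (0.164%) and in 0 of those 93. With so low a share over all promoters, 0 of 93 cannot show that the shared genes lack such repeats. The promoter of Cyp24a1 was not among those searched. A match is a description of letters in this window and names no binding site.

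The 8 genes with the more positive response in crypts were low in villi, with 1 exception. For 7 of them both villus groups averaged under 1 FPKM, and the exception was Fhl2. The filter bears on these calls: Fam20c, Atoh8, Trim47, 5033404E19Rik and A430107O13Rik reached 1 FPKM in the 6 vitamin D crypt libraries and in no other library. Only these 5 of the 10942 genes passed through vitamin D crypts alone, so each had to be high there, and their calls in the filtered fit support nothing. Their adjusted p-values are therefore given from the fit with no filter, over the 17597 genes with a value above 0 in any library, in which all 10 genes were called among 18. Cnnm1 reached 1 FPKM in 1 further library, of vehicle crypts. It too could not have passed without the vitamin D crypts, and its adjusted p-value is likewise given from the fit with no filter. Fam20c, a Golgi kinase of secreted proteins, had 1.22 to 3.15 FPKM in vitamin D crypts (median 2.62) and 0.252 to 0.444 FPKM in vehicle crypts (median 0.394). In villi it had 0.137 to 0.494 FPKM with vitamin D (median 0.222) and 0.101 to 0.295 FPKM with vehicle (median 0.259). The crypt groups did not overlap and the villus groups did, and the difference was -1.69 ± 0.22 (limma with no filter, adjusted p = 2.21e-04). In reads, Fam20c had 82 over the 7 vitamin D villus libraries and 66 over the 6 vehicle ones, against 686 in vitamin D crypts and 97 in vehicle crypts.

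Wfdc16, of the family of secreted WAP-domain proteins, showed the largest called difference. It had 0.122 to 1.41 FPKM in vitamin D villi (median 0.423), against 0 to 0.249 FPKM in vehicle villi (median 0.0604). It had 8.60 to 25.2 FPKM in vitamin D crypts (median 18.1), against 1.17 to 1.96 FPKM in vehicle crypts (median 1.74). Groups overlapped in villi and not in crypts, and the difference was -2.38 ± 0.35 (limma, adjusted p = 0.00109). The ratio of mean FPKM was 5.17 in villi and 11 in crypts, but the villus ratio rested on 55 reads over 7 libraries against 10 reads over 6.

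Atoh8, a basic helix-loop-helix transcription factor, had 2.39 to 5.46 FPKM in vitamin D crypts (median 4.07) and 0.497 to 0.967 FPKM in vehicle crypts (median 0.802). In villi it had 0.148 to 0.390 FPKM with vitamin D (median 0.210) and 0 to 0.132 FPKM with vehicle (median 0.119). In FPKM the groups were thus apart in both fractions. In reads the villus groups met, at 5 to 14 per vitamin D library (56 in all) and 0 to 5 per vehicle library (19 in all). The difference was -1.42 ± 0.20 (limma with no filter, adjusted p = 8.57e-04), and the ratio of means was 2.78 in villi and 5.00 in crypts. Cnnm1, of a membrane protein family linked to magnesium transport, averaged 0.615 ± 0.067 FPKM in vitamin D villi and 0.412 ± 0.135 FPKM in vehicle villi, against 3.18 ± 0.51 FPKM in vitamin D crypts and 0.882 ± 0.202 FPKM in vehicle crypts. Its difference was -1.11 ± 0.16 (limma with no filter, adjusted p = 0.00127). Trim47, a RING protein of the tripartite-motif family, averaged 2.32 ± 1.46 FPKM in vitamin D crypts and 0.177 ± 0.138 FPKM in vehicle crypts, and 42 reads over 7 vitamin D and 6 reads over 6 vehicle villus libraries. Its difference was -1.59 ± 0.29 (limma with no filter, adjusted p = 0.0126).

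Both remaining low genes, 5033404E19Rik and A430107O13Rik, lie outside the naming rule and are named after their values were seen. 5033404E19Rik had 96 reads over the 6 vitamin D crypt libraries and 1 read over the 6 vehicle ones. In villi it had 10 reads over 7 vitamin D libraries and 0 over 6 vehicle libraries, and every villus library was at or under 3 reads, the limit that a count of 0 allows. No fold is therefore given for villi, and its fitted difference of -1.71 ± 0.22 (limma with no filter, adjusted p = 1.32e-04) depends on the pseudocount. A430107O13Rik had a difference of -1.35 ± 0.26 (limma with no filter, adjusted p = 0.0226). In the filtered fit its call was lost in 16 of the 25 fits that left out a library.

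Low villus levels bear directly on these calls, since a pseudocount of 0.5 shrinks a fold change of genes under 1 FPKM. With a pseudocount of 0.1 the difference was called for 5 genes, and the calls of Wfdc16, Atoh8, Cnnm1, Trim47 and A430107O13Rik were lost. With an FPKM of 1 required in both fractions 2 genes were called, Ppl and Zfp961, which have the more positive response in villi. In the 4 libraries of each group whose labelled names carry neither a leading number nor a hyphen, 3 genes were called: 5033404E19Rik, Fam20c and Cnnm1.

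**Figure D4:**
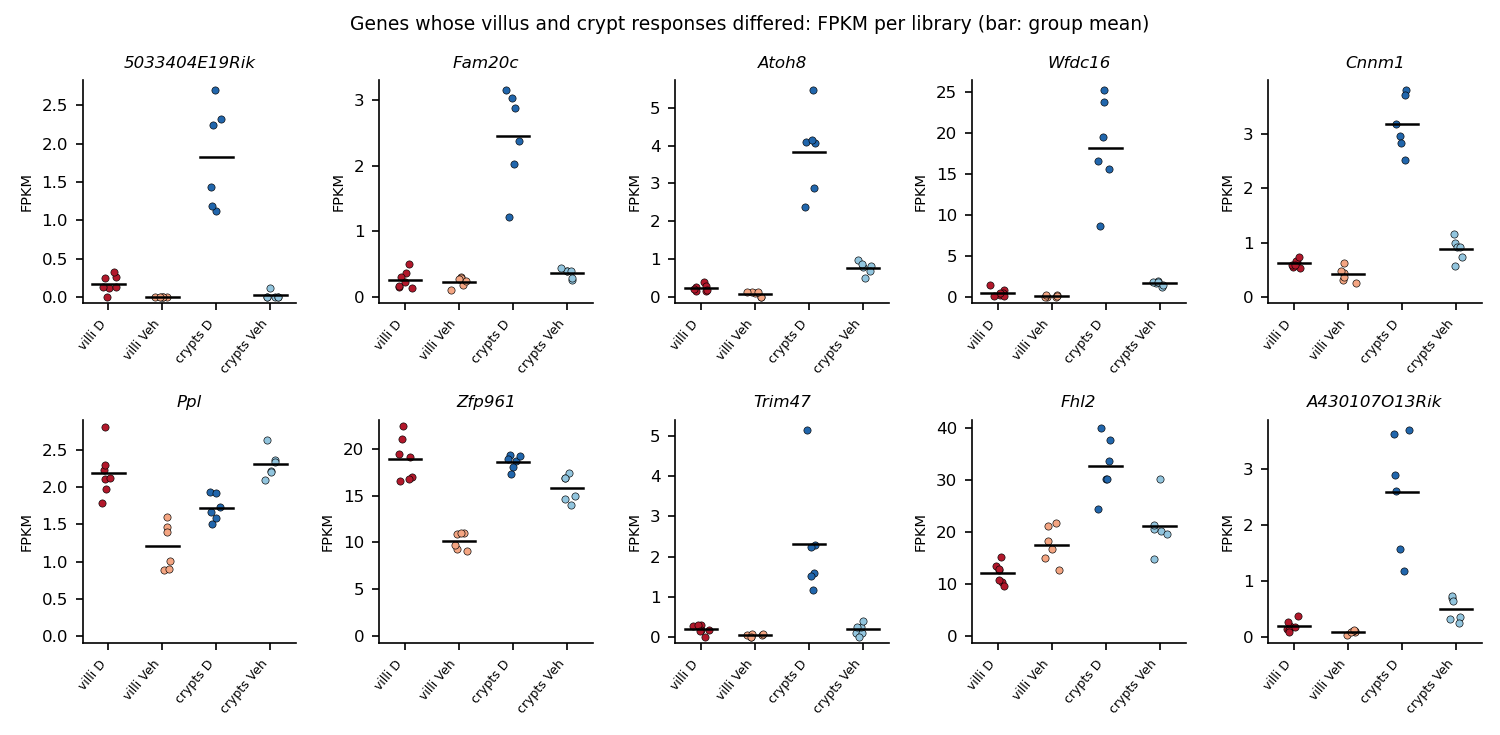
FPKM per library of the 10 genes with a called difference of responses, with vitamin D left of vehicle in villi and then in crypts; bars are group means. In 7 panels both villus groups average under 1 FPKM while vitamin D crypts stand above vehicle crypts.

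Fhl2, a LIM-domain protein, was not low in villi, and its responses had opposite signs. It had 9.65 to 15.2 FPKM in vitamin D villi (median 12.7), against 12.7 to 21.9 FPKM in vehicle villi (median 17.5). It had 24.4 to 40.1 FPKM in vitamin D crypts (median 32.0), against 14.9 to 30.2 FPKM in vehicle crypts (median 20.4). Groups overlapped in both fractions. The log2 fold change was -0.50 ± 0.15 in villi, which was not called (limma, adjusted p = 0.0716), and 0.63 ± 0.15 in crypts, which was (limma, adjusted p = 0.0278). The difference was -1.13 ± 0.21 (limma, adjusted p = 0.0219), and 5 of the 25 fits without a library lost the call. It was also lost where an FPKM of 1 was required in both fractions. In colon, which these fits did not use, Fhl2 rose by 1.14 ± 0.16 (limma, adjusted p = 0.00231).

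In the other direction, Ppl and Zfp961 had the more positive response in villi. Ppl, which encodes the cornified-envelope and desmosome protein periplakin, had 1.78 to 2.80 FPKM in vitamin D villi (median 2.12), against 0.891 to 1.60 FPKM in vehicle villi (median 1.204). It had 1.51 to 1.94 FPKM in vitamin D crypts (median 1.70), against 2.09 to 2.62 FPKM in vehicle crypts (median 2.27). Vitamin D libraries were all above vehicle in villi and all below vehicle in crypts. The response was called in villi, at 0.66 ± 0.11, and not in crypts, at -0.33 ± 0.11 (limma, adjusted p = 0.132), and the difference was 1.00 ± 0.15 (limma, adjusted p = 0.00169).

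Zfp961, a zinc finger protein, had 16.6 to 22.4 FPKM in vitamin D villi (median 19.1), against 9.06 to 11.04 FPKM in vehicle villi (median 10.4). It had 17.3 to 19.3 FPKM in vitamin D crypts (median 18.8), against 14.0 to 17.4 FPKM in vehicle crypts (median 15.9). The villus groups were far apart and the crypt groups met at their edges. The ratio of mean FPKM was 1.86 in villi and 1.18 in crypts, and the difference of responses was 0.62 ± 0.11 (limma, adjusted p = 0.0150). Fhl2, Ppl and Zfp961 each lost the call in the libraries without a number or hyphen, and so did all called genes but 5033404E19Rik in the libraries with the female pattern.

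Of the genes called for the difference, 7 matched the promoter table, with 8 promoters, and 2 of these 8 (25%) held a hexamer of the set above. They belong to Cnnm1, from chr19:43440163-43440412, and Zfp961, from chr8:71950816-71951065, both on the plus strand of GRCm38.p6, and are shown for comparison with the shared genes.
Cnnm1: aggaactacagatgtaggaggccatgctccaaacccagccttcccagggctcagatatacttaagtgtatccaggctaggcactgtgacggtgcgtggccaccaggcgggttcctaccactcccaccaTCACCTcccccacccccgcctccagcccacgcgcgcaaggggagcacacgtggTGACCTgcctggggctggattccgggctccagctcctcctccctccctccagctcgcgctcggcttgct
Zfp961: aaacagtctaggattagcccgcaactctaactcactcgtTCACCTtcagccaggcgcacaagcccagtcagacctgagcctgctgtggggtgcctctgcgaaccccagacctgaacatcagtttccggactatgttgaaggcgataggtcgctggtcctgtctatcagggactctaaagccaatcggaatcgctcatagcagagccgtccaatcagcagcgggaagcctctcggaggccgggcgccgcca
Cnnm1 held 2 hexamers and Zfp961 held 1, and none of the 8 promoters held a direct repeat spaced by NNN. With 0.164% of all promoters holding one, so few promoters cannot show a lack.

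Further genes with a more positive response in villi, taken by smallest p, did not pass. Nedd9, a focal adhesion scaffold, had 15.4 to 24.4 FPKM in vitamin D villi (median 22.2), against 7.33 to 12.9 FPKM in vehicle villi (median 10.7). It had 9.87 to 14.8 FPKM in vitamin D crypts (median 13), against 9.23 to 15.2 FPKM in vehicle crypts (median 12.0). Its groups were apart in villi and overlapped in crypts, but the difference of 0.87 ± 0.19 was not called (limma, adjusted p = 0.108). Myo19, a mitochondrial myosin, was called in both fractions and had a larger value in villi, 1.46 ± 0.11 against 0.72 ± 0.12 in crypts, with a difference of 0.74 ± 0.16 (limma, adjusted p = 0.108). Top2b, a DNA topoisomerase, had a difference of 0.59 ± 0.14 and Fam73b one of 1.49 ± 0.37 (limma, adjusted p = 0.276 for both). Pdgfa, a growth factor chosen after its values were seen, had a villus response of 0.09 ± 0.36 and a crypt response of 2.47 ± 0.37, and its difference of -2.38 ± 0.52 was not called (limma, adjusted p = 0.108).

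Gene lists of cell types shifted between the fractions as medians, with almost no member called for the difference. Of 306 list genes tested, Cnnm1 and Ppl were called, beside 0.0914% of all genes. All 20 absorptive enterocyte genes had a positive difference, with a median of 0.56, beside 0.03 over all genes tested (5921 positive, 5021 negative). Their median response was 0.11 in villi and -0.47 in crypts, where 1 of them, Sis, was called lower. Sis, the brush-border sucrase-isomaltase, averaged 1850 ± 99.2 FPKM in vitamin D villi and 2001 ± 575 FPKM in vehicle villi, against 945 ± 170 FPKM in vitamin D crypts and 1706 ± 476 FPKM in vehicle crypts. Lipid absorption genes gave 17 of 18 positive differences with a median of 0.50, and genes of fatty acid oxidation 16 of 18 with a median of 0.23. Xenobiotic genes gave 21 of 25 with a median of 0.36, and circadian clock genes 13 of 14 with a median of 0.40.

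Cell cycle and Paneth lists went the other way. All 24 cell cycle genes had a negative difference, with a median of -0.47, from medians of -0.24 in villi and 0.23 in crypts. All 11 measured Paneth genes did too, with a median of -0.61, from -0.37 in villi and 0.23 in crypts. Nusap1, a spindle protein, fell in villi by 1.48 on the log2 scale and had a crypt response of -0.01 ± 0.30, and its difference of -1.47 ± 0.42 was not called (limma, adjusted p = 0.532). The calcium list had a median of 1.2 in villi and 1.34 in crypts, and the 23 zinc, manganese and iron genes had a median difference of 0.03 with 13 positive. In that metal list 4 genes rose and 2 fell in villi, and 3 rose in crypts, beside 2.1%, 0.457% and 1.31% of all genes. All 6 genes of MHC class II presentation had a negative difference, with a median of -0.32, which ran between -0.67 and 0.30 when any one library was left out. Of 10 glucocorticoid targets, 8 had a positive difference, with a median of 0.36 that was 0.04 without vehicle villus library 5, and none was called in either fraction. The other 14 lists had median differences between -0.08 for lymphocytes and 0.21 for interferon response genes.

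**Figure D5:**
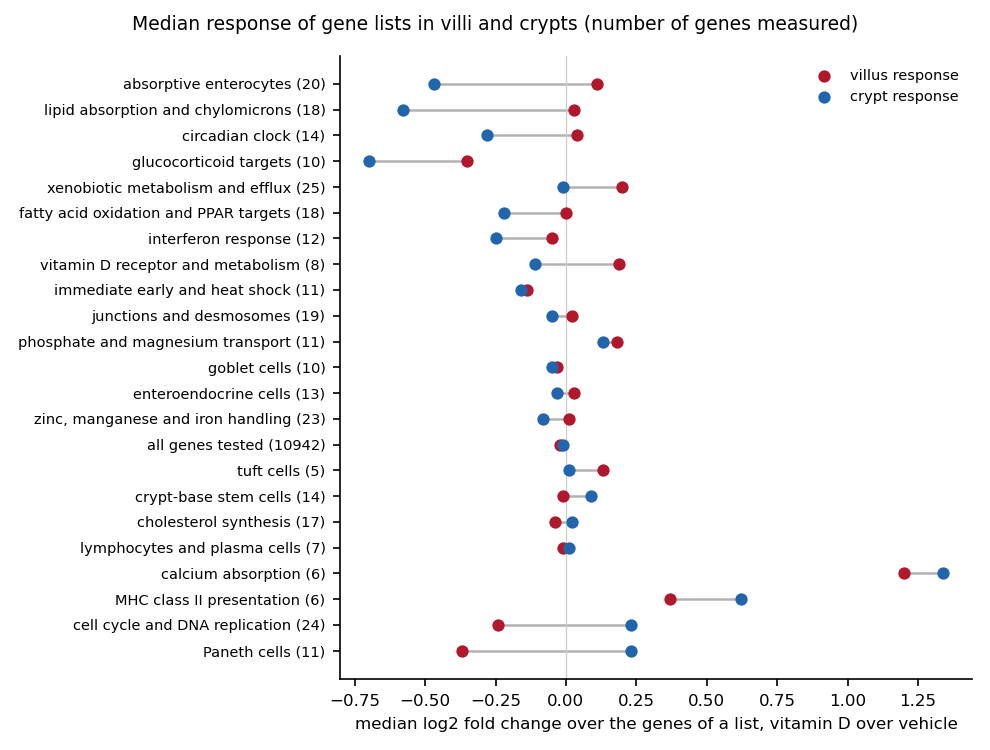
Median log2 fold change of vitamin D over vehicle in villi (red) and in crypts (blue) over the genes of each list, with the number of genes measured in brackets; lists are ordered by their median difference. Enterocyte and lipid absorption lists stand at the top and cell cycle and Paneth lists at the bottom, while the calcium list is high in both fractions.

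These medians moved with single libraries. The summed markers given beside them are sums over genes of the same lists, so both move together by construction. The enterocyte median was 0.84 without vehicle crypt library 4, which had the lowest enterocyte sum of its group (3659 FPKM), and 0.35 without vehicle crypt library 6, which had the highest (16180 FPKM). The Paneth median was -0.10 without vehicle villus library 4, whose Paneth sum of 4163 FPKM was the highest among villi, and -1.13 without vehicle villus library 2, whose sum of 109 FPKM was the lowest. With any one library left out, the median ran between 0.30 and 0.83 for lipid absorption, 0.18 and 0.41 for fatty acid oxidation, 0.26 and 0.57 for circadian clock genes, and 0.04 and 0.56 for glucocorticoid targets. The xenobiotic median ran between 0.12, without vehicle villus library 4, and 0.52, without vehicle crypt library 4. The cell cycle median ran between -0.71 and -0.20 when any one library was left out, and its sum was 86.5 to 142 FPKM in vitamin D villi and 137 to 235 FPKM in vehicle villi. In the 4 libraries of each group without a number or hyphen, the enterocyte median was 0.25, the cell cycle median -0.16 and the Paneth median 0.16. The part of the mix of cells in these list values was not tested.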

How the data were processed

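RNA-seq libraries of villi and crypts were analysed, with colon libraries used only to choose genes. The authors deposited an FPKM table for each tissue, holding 21441 genes with libraries as columns, per the file headers. Comparison tables were deposited by the authors as well, and per the file headers hold each gene's mean, log2 fold change and p-values; the mean served to read the depth from the steps of low FPKM values, of which 83.0% to 91.5% were whole reads within 0.05. No count model was run. Per the submitters' processing notes, the build was mm9 and the tools include DESeq2, DESeq 1.28.1 and kallisto 0.45.0. Promoters are RefSeq's, of another build, and were matched by symbol alone.

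Each response was taken within its own table, and a fold change on log2(FPKM + 0.5) understates the change of low genes. A limma 3.58.1 model in R 4.3.3 fitted 4 group means over 25 libraries with no covariate (eBayes with trend), and p-values had a Benjamini-Hochberg adjustment across the 10942 genes, with a threshold of 0.05. Errors of fold changes are standard errors, those of FPKM are SDs. The difference is villus minus crypt. The model was tested on simulated data. Libraries of 1 group always differed beyond counting noise (chi-square per degree of freedom of 13.93 or more), and each counted as a replicate. Depth intervals and the limit of 3 reads cover counting error only.

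The comparison, the 25 gene lists (369 genes: symbols found 362, older names found 2 more, and 5 had no match) and the named genes were chosen with earlier results of these data known. The rule names 16 genes whatever their test, called genes with an ordinary symbol and a mean FPKM of 2 or more in a group (filled to 6 per direction), genes called in both responses with the largest smaller change, and up to 2 genes per list; a selection is printed. Alternatives covered the pseudocount, filters, scaling, samples in the fit, moderation, replicate numbers, naming style, sex pattern and each library left out. The sex pattern by tissue and the libraries of female pattern alone were added after seeing the data.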

Additional observations from a re-analysis of the deposited data

Results flagged for a closer look

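Dixon's test on log2(FPKM + 0.5) was applied to 120 groups of libraries (30 genes in 4 groups) and marked 6, where chance marks about 1 in 20. Cyp24a1 was marked in vehicle villus library 6, at 62.2 FPKM, and in vehicle crypt library 5, at 7.35 FPKM. Trpv6 stood out in vehicle crypt library 3, at 0.809 FPKM, and 5033404E19Rik in vehicle crypt library 4, at 0.11 FPKM, which is 1 read. Slc37a2 was low in vitamin D villus library 5, at 63.6 FPKM, and Fam73b was high in vitamin D crypt library 6, at 1.78 FPKM.

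The villus and crypt responses differed by limma's test of the difference for 10 genes. The differences, villus minus crypt on the log2 scale, were -1.71 for 5033404E19Rik, -1.69 for Fam20c, -1.42 for Atoh8, -2.38 for Wfdc16, -1.11 for Cnnm1, -1.59 for Trim47, -1.13 for Fhl2 and -1.35 for A430107O13Rik, and 1.00 for Ppl and 0.62 for Zfp961. Fam20c, Atoh8, Trim47, 5033404E19Rik and A430107O13Rik passed the filter on low values through vitamin D crypts alone.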

How the results depend on the processing

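The difference was called for 10 genes, and for 5 with a pseudocount of 0.1, 18 with no filter, 2 with the filter in both tables, 4 with a separate fit in each tissue, 3 in the libraries named without a number or hyphen, 1 in those of female pattern, and 8 to 19 with 1 library left out. The 4 genes called with a separate fit were 5033404E19Rik, Fam20c, Atoh8 and Wfdc16, which averaged under 1 FPKM in both villus groups. Ppl, Zfp961 and Fhl2, which did not, lost the call there. The cause of the shifts between settings was not tested. The villus response was called for 280 genes, and for 427 with naming style as a covariate, 516 with style by tissue, 176 in the female-pattern libraries and 213 to 309 with 1 library left out. The crypt response was called for 214 genes, and for 424 with style by tissue, 112 in the libraries without a number or hyphen, 823 in the female-pattern libraries and 129 to 684 with 1 library left out. The correlation over all genes was 0.33 to 0.61 under every alternative that gave it. The call of 5033404E19Rik held under all 17 settings that tested it and in all 25 fits without a library. All of these except the fit with no filter kept a filter that this gene passed through vitamin D crypts alone. Its call in those fits therefore supports nothing, and every villus library was at or under 3 reads.

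The numbers in the titles were not taken to pair libraries: same-numbered libraries deviated together with r over 0.1 in 10 of 12 pairs within a tissue (0.09 to 0.54) and in 9 of 12 within a treatment (-0.02 to 0.57). With a replicate block the difference was called for 15 genes, the villus response for 492 and the crypt response for 394; with a replicate block within tissue the counts were 7, 553 and 517; with a replicate block within treatment the difference was called for 10 genes, and the separate responses could not be fitted. Fhl2 was not called under the replicate block, Ppl, Zfp961 and Trim47 under the block within tissue, and Fhl2, Cnnm1 and A430107O13Rik under the block within treatment. Under these blocks the difference of Slc30a1, -0.02 otherwise, was 0.06 each time.

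Slc30a1 was also 0.00 with style by tissue, 0.16 in the libraries without a number or hyphen, 0.00 in the female-pattern libraries and -0.12 to 0.08 with 1 library left out. Without vehicle crypt libraries 4, 5 and 6, Vdr was 0.03 and Trpv6 0.01. With 1 library left out, Trpv6 ran between -0.45 and 0.10, Cyp24a1 between -1.36 and 0.12, Ptprj between 0.00 and 0.21 and Spon2 between -0.04 and 0.63. None of these genes was called for the difference. Depth limits the low genes: Fam20c had a median of 11 reads in vitamin D villi.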
